A study of Mus musculus with 30 samples.

Results

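Troponins and tropomyosins are the calcium switch of the muscle thin filament, and their expression was followed in cultures of extraocular muscle, which turns the eyeball, from the mouse. The set was defined by gene name: every probe set whose platform symbol was Tnnt1, Tnnt2, Tnnt3, Tnni1, Tnni2, Tnnc1, Tnnc2, Tpm1, Tpm2 or Tpm3 alone. This gave 10 of 18194 named genes, read by 24 of 45265 probe sets, with 22 of 22690 on the Affymetrix A arrays for all 10 genes and 2 of 22575 on the B arrays for Tnnt2 and Tpm1. RNA was measured at 0, 4, 12, 24 and 48 h, with 3 arrays per time on each array type and 30 arrays in all. The labels give no strain, age, culture medium or treatment, and leave unsaid what 0 h counts from, if replicates came from different cultures, and if an A and a B array of 1 number shared their RNA. The p-values below thus reflect the spread of arrays alone, and that spread may be technical. The B array at 0 h, replicate 1, carried extraocular muscle in its title but leg muscle as its source, and was kept under its title.

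In a striated muscle cell, troponin C binds calcium, troponin I holds the filament off at rest, and troponin T ties the complex to tropomyosin, a coiled coil that covers the myosin sites on actin. Each troponin subunit is made from paralogous genes: Tnni2, Tnnc2 and Tnnt3 encode the fast skeletal forms, Tnni1, Tnnc1 and Tnnt1 the slow skeletal forms (Tnnc1 also serves the heart), and Tnnt2 the cardiac form, which developing skeletal muscle also uses. Tpm1, Tpm2 and Tpm3 encode alpha, beta and gamma tropomyosin. Through alternative promoters and splicing the tropomyosin genes also give smooth muscle and non-muscle isoforms, so that 1 gene can be read by probe sets for different transcripts.

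Promoter sequences are shown for the calcium-binding pair, Tnnc2 and Tnnc1, whose fast member had the smallest adjusted p-values, and for Tnnt2, the cardiac gene that passed the test at 24 h. Each line holds the 250 bases before the gene start in RefSeq on GRCm38.p6, 5′ to 3′ on the gene's strand: Tnnc2 at chr2:164779735-164779984 (minus strand), Tnnc1 at chr14:31208062-31208311 (plus strand) and Tnnt2 at chr1:135836084-135836333 (plus strand). Capitals mark matches on either strand to the E-box CANNTG, which myogenic basic helix-loop-helix factors can bind, and to the MCAT core CATTCC, which TEAD factors can bind.
Tnnc2: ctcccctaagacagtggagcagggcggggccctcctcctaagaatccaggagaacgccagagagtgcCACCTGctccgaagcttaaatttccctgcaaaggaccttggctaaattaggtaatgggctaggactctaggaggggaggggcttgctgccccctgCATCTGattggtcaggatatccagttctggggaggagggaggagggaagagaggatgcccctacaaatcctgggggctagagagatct
Tnnc1: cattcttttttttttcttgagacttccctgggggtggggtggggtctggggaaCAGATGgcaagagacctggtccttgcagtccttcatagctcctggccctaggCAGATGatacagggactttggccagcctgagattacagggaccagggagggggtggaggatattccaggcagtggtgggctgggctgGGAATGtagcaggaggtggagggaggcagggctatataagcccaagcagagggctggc
Tnnt2: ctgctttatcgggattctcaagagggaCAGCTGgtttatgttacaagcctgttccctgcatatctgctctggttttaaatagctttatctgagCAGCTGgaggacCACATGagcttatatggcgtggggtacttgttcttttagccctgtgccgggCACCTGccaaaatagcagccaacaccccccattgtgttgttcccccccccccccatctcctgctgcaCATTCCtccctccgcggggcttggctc
RefSeq promoters were matched for 8 of the 10 genes, 11 promoters in all, and none for the fast genes Tnni2 and Tnnt3. Each of these windows held an E-box, as did 66.2% of the 32851 mouse promoters of the same length. The windows were not all separate, since the 2 of Tnni1 overlapped and shared 2 E-boxes. The Tnnc2 and Tnnc1 windows above held 2 E-boxes each and the Tnnt2 window held 4, while a second Tnnt2 promoter, not printed, held 1. The MCAT core was in 3 windows (Tnnt2, Tnnc1 and Tpm1), against 12.6% of all promoters, and TATAAA, searched on both strands, was in 1 (Tnnt1), against 12.4%. No window held the MEF2 or the SRF (CArG) consensus, found in 2.92% and 1.47% of all promoters. No match overlapped another, and a match in these letters is a description and not a binding site. In the same RefSeq annotation troponin genes lie in pairs: 1 protein-coding gene (Lsp1) separates Tnni2 from Tnnt3, 1 (Lad1) separates Tnni1 from Tnnt2, and none separates Tnnt1 from Tnni3.

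The deposited intensities had been scaled to 1 trimmed mean per array type, so every change is relative to the whole array. Each array's mean correlation with others of its time was 0.962 to 0.979 (A) and 0.852 to 0.891 (B), and the 3′ to 5′ signal ratio on the A arrays was 0.76 to 0.89 for Gapdh and 1.01 to 1.14 for Actb. On the A type the first component of the deviations from the time means held 26.5% of that deviation, and 5 arrays lay beyond 0.3 on it, to both sides. At its upper end, whose sign is arbitrary, were replicate 3 at 0 h (0.478), replicate 2 at 4 h (0.325) and replicate 3 at 12 h (0.411), and at its lower end were replicate 2 at 0 h (-0.41) and replicate 2 at 12 h (-0.396). Deviations of the 3 arrays of a time sum to 0, so that 1 high array comes with low ones. Calls of single probe sets against 0 h that differed without the 3 upper-end, the 2 lower-end or all 5 arrays are given in those forms too, with some of the changes. Between successive times these forms are given as counts alone. These forms were all chosen after seeing the data. The fit without all 5 leaves 1 array at 0 h and 1 at 12 h, assumed to vary like the rest. A change was called when limma's Benjamini-Hochberg adjusted p, over all 13577 A probe sets tested, was under 0.05. Intensities are linear, log2 changes are ± SE, and n = 3 arrays per time.

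The fast troponins rose: at 48 h Tnni2 was 3.19-fold, Tnnc2 3.10-fold and Tnnt3 1.83-fold its 0 h level, by the brightest probe set of each and on the scale of log2(intensity + 16). At 24 h 7 of 21 tested A probe sets of the set were higher than at 0 h, from 5 genes (Tnni2, Tnnc2, Tnnt3, Tnnt2 and Tpm2), against a background of 3.23% of all probe sets called higher. At 48 h 4 were higher, from the 3 fast troponin genes alone, against 4.20%. At 12 h 2 were higher, 1 each for Tnnc2 and Tnni2, against 0.250%, and at 4 h none passed, against 0.0295% called in either direction. At an unadjusted p under 0.05 the set had 0, 9, 9 and 12 probe sets at 4, 12, 24 and 48 h, against 6.02%, 12.8%, 19.6% and 19.7% of all tested. No probe set of the set was called lower than at 0 h at any time. Of all 13577 tested, 4, 16, 317 and 339 were called lower at 4, 12, 24 and 48 h, shares too small for none of 21 to stand out. The F-test for any change over time called 4 probe sets, those of Tnni2 (2), Tnnc2 and Tnnt3, against 7.59%. Among the 9 tested troponin probe sets the median log2 change was 0.45 at 12 h, 0.78 at 24 h and 0.60 at 48 h, and all 9 were above 0 at each of these times. Among the 12 tropomyosin probe sets the medians were 0.06, 0.03 and -0.20. Over all tested probe sets they were 0.00, -0.01 and 0.02. In bulk RNA, more cells of a type and more RNA per cell cannot be told apart, nor can fewer cells and less RNA per cell.

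**Figure D1:**
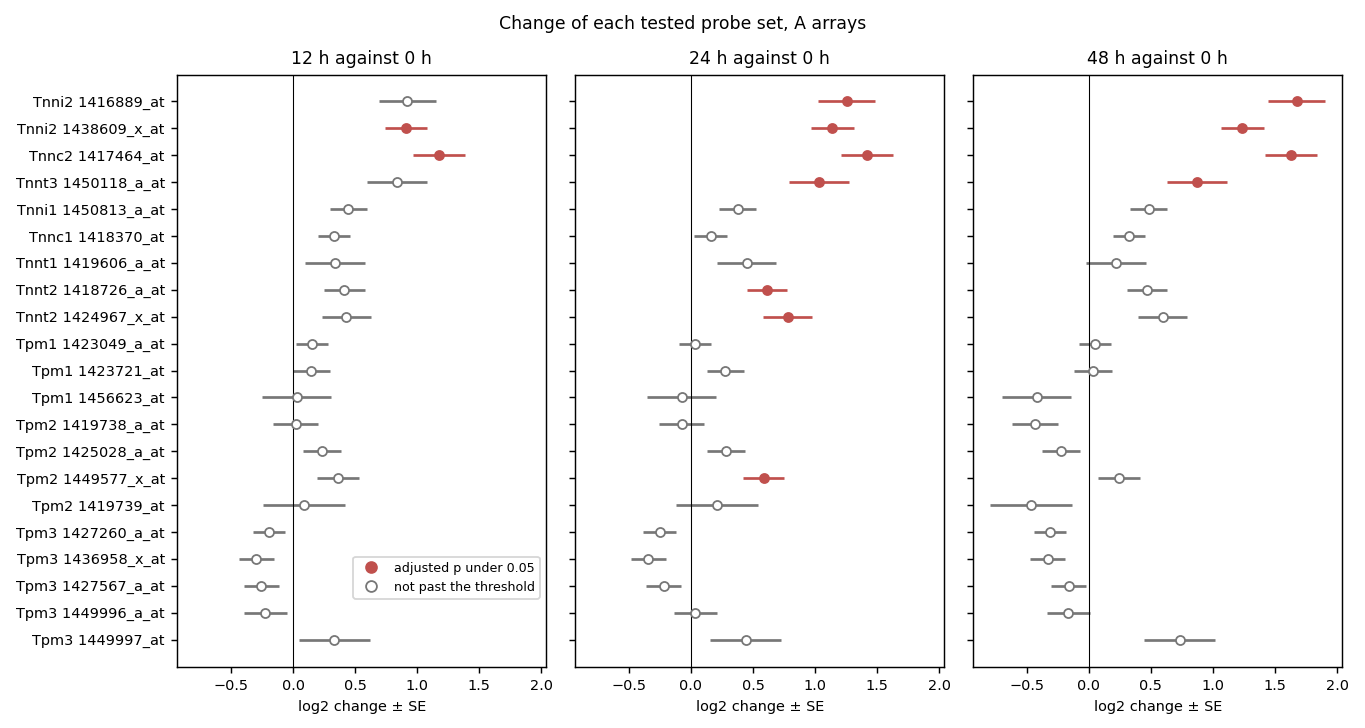
Log2 change (horizontal axis, ± SE) of each tested A array probe set at 12, 24 and 48 h against 0 h, with filled red points where the adjusted p was under 0.05. The Tnni2, Tnnc2 and Tnnt3 rows lie farthest to the right, at 0.87 to 1.67 at 48 h, while most tropomyosin rows lie near or below 0.

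Tnni2, the fast inhibitory subunit, was read by 3 A probe sets. By 1416889_at its intensity was 1857, 2359 and 2157 at 0 h, 2531, 2153 and 2375 at 4 h, 4390, 5173 and 2852 at 12 h, 6326, 6203 and 3313 at 24 h, and 6622, 8243 and 5716 at 48 h. Every array from 12 h on was above every array at 0 h, and replicate 3 was the lowest array at 12 and 24 h. The log2 change was 1.67 ± 0.23 at 48 h (adjusted p = 0.000202) and 1.25 ± 0.23 at 24 h (adjusted p = 0.00348). At 12 h it was 0.92 ± 0.23 and missed the threshold (adjusted p = 0.0924). Without the 3 upper-end arrays the 12 h value was 1.18 and passed (adjusted p = 0.0312), while it missed without the 2 lower-end arrays (0.82, adjusted p = 0.401) or all 5 (1.23, adjusted p = 0.261). It passed too without 12 h replicate 3 alone (1.17, adjusted p = 0.019) or 24 h replicate 3 alone (0.92, adjusted p = 0.0337). The other tested Tnni2 probe set, 1438609_x_at, read 565, 515 and 627 at 0 h, 759, 734 and 666 at 4 h, 1257, 1178 and 851 at 12 h, 1402, 1524 and 955 at 24 h, and 1319, 1476 and 1285 at 48 h, with no overlap between 0 h and any later time. Its log2 change was 0.91 at 12 h (adjusted p = 0.034), 1.14 at 24 h and 1.24 at 48 h (adjusted p = 0.00022). Its 12 h call was lost with median scaling, without the filter on dim probe sets, without the intensity trend, or with only the times compared. It was also lost without replicate 1 or 2 of either 0 h or 12 h, replicate 1 of 48 h, the 2 lower-end arrays or all 5, with an adjusted p of up to 0.32 over all alternatives. Its suffix means that its probes may also match other genes. The third, 1438608_at, had a mean of 12.3 and lay under the filter on dim probe sets, so it was not tested.

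Tnni1, the slow inhibitory subunit, was bright at the start and did not pass at any time. Its intensity was 9645, 8838 and 10017 at 0 h, 12207, 9328 and 9976 at 4 h, 12847, 15147 and 11117 at 12 h, 12808, 14834 and 9863 at 24 h, and 14530, 13940 and 11495 at 48 h. All arrays at 12 and 48 h lay above those at 0 h, and replicate 3 at 24 h lay among them. Its log2 difference from 0 h was 0.48 ± 0.15 at 48 h (adjusted p = 0.0645) and 0.38 ± 0.15 at 24 h (adjusted p = 0.167). After quantile normalization, which equalises the whole distribution of each array, Tnni1 passed at both times, with 0.63 at 48 h (adjusted p = 0.00143) and 0.58 at 24 h (adjusted p = 0.00413). It also passed at both times without 24 h replicate 3 (0.48 at 48 h, adjusted p = 0.0357, and 0.54 at 24 h, adjusted p = 0.046), and at 48 h with the replicate number as a block (adjusted p = 0.044) or with only the times compared (adjusted p = 0.0412).

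Tnnc2, the calcium-binding subunit of fast fibres, had the smallest adjusted p-values of the set. Its intensity was 2189, 2140 and 3476 at 0 h, 3522, 3042 and 2947 at 4 h, 6198, 6402 and 4799 at 12 h, 7986, 8559 and 4625 at 24 h, and 8109, 8090 and 7459 at 48 h. No array from 12 h on overlapped with 0 h, and 0 h replicate 3 was higher than its 2 companions. Against 0 h the log2 change was 1.18 ± 0.21 at 12 h (adjusted p = 0.0285), 1.42 ± 0.21 at 24 h (adjusted p = 0.000645) and 1.63 ± 0.21 at 48 h (adjusted p = 9.9e-05). Without the 3 upper-end arrays these were 1.53, 1.65 and 1.86, and without the 2 lower-end arrays 0.98, 1.30 and 1.51. The calls at 24 and 48 h held in all 27 alternatives, as did those of both tested Tnni2 probe sets. The 12 h call held in 17 of 27. It was lost with median scaling, without the filter, without the intensity trend, in the fit on 0 and 12 h alone, on leaving out replicate 1 or 2 of either time, and without the 2 lower-end arrays or all 5 (adjusted p up to 0.288).

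Tnnc1, the slow and cardiac calcium-binding subunit, did not pass at any time. Its intensity was 11219, 9541 and 11121 at 0 h, 11592, 9185 and 10295 at 4 h, 13432, 13555 and 12921 at 12 h, 12481, 13654 and 9691 at 24 h, and 13370, 15021 and 11545 at 48 h. The 12 and 48 h arrays lay above the 0 h arrays and the 24 h arrays overlapped with them. Against 0 h the difference was a log2 of 0.32 ± 0.13 at 48 h (95% interval 0.05 to 0.59, adjusted p = 0.171), and 0.16 ± 0.13 at 24 h (adjusted p = 0.571). After quantile normalization it was 0.51 at 48 h (adjusted p = 0.00111) and 0.40 at 24 h (adjusted p = 0.0104).

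Tnnt3, the fast tropomyosin-binding subunit, rose at 24 and 48 h. Its intensity was 3082, 3257 and 2970 at 0 h, 3862, 2798 and 3700 at 4 h, 6656, 7399 and 3476 at 12 h, 7734, 7354 and 4487 at 24 h, and 6350, 6098 and 4713 at 48 h. Replicate 3 was the lowest array at 12, 24 and 48 h and still lay above all 0 h arrays. The log2 change was 1.03 ± 0.24 at 24 h (adjusted p = 0.0177), 0.87 ± 0.24 at 48 h (adjusted p = 0.0383) and 0.84 ± 0.24 at 12 h (adjusted p = 0.143). The 12 h value was 1.14 without the 3 upper-end arrays and then passed (adjusted p = 0.0148), as it did without 12 h replicate 3 alone (1.17, adjusted p = 0.0111), but it missed without the 2 lower-end arrays (0.67, adjusted p = 0.558) or all 5 (1.11, adjusted p = 0.238). The 24 h call was lost without replicate 1 or 3 at 0 h, without replicate 1 or 2 at 24 h, or without all 5 end arrays (adjusted p up to 0.0947 over all alternatives). The 48 h call was lost with median scaling, without the filter, without the intensity trend, without any 1 array at 0 h, without replicate 1 or 2 at 48 h, and without the 2 lower-end arrays or all 5 (adjusted p up to 0.138).

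Tnnt2, the cardiac and embryonic form of the same subunit, was read by 2 A probe sets. By 1418726_a_at its intensity was 5731, 6318 and 7267 at 0 h, 8547, 5885 and 7191 at 4 h, 9955, 9442 and 6630 at 12 h, 10483, 10875 and 8251 at 24 h, and 9713, 8899 and 8101 at 48 h. All arrays at 24 and 48 h exceeded those at 0 h, while 4 and 12 h overlapped with 0 h. On the log2 scale the change was 0.61 ± 0.16 at 24 h (adjusted p = 0.0364) and 0.47 ± 0.16 at 48 h (adjusted p = 0.102). By 1424967_x_at it was 0.78 ± 0.20 at 24 h (adjusted p = 0.0276) and 0.60 ± 0.20 at 48 h (adjusted p = 0.0841). By its suffix the probes of 1424967_x_at may also match other genes. Without the 3 upper-end arrays both probe sets passed at 12, 24 and 48 h, with 0.69, 0.70 and 0.56 for 1418726_a_at. Without the 2 lower-end arrays neither passed at any time, with 0.33, 0.60 and 0.46 for 1418726_a_at, and without all 5 both passed at 24 h alone. After quantile normalization both also passed at 48 h, and 1424967_x_at did so without 4 h replicate 2 (adjusted p = 0.0435), without 12 h replicate 3 (adjusted p = 0.0318) or with only the times compared (adjusted p = 0.0129). Both 24 h calls were lost with median scaling, without the filter, without the intensity trend, without replicate 1 or 2 at 0 h or without replicate 1 or 2 at 24 h, and that of 1424967_x_at also without replicate 3 at 0 h (adjusted p up to 0.143 and 0.12 over all alternatives).

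The B array probe set for Tnnt2, 1440424_at, was not called. Its intensity was 1711, 2544 and 730 at 0 h, 1797, 762 and 1860 at 4 h, 1560, 1576 and 1094 at 12 h, 1637, 1508 and 2340 at 24 h, and 1068, 1128 and 1445 at 48 h. The 3 arrays at 0 h spanned the values of all later times. Its log2 change was 0.28 ± 0.38 at 24 h and -0.29 ± 0.38 at 48 h (adjusted p = 0.882 and 0.88), against 0.970% and 0.933% of B probe sets called in either direction.

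Tnnt1, the slow form, did not pass at any time. Its intensity was 5290, 5323 and 3571 at 0 h, 5595, 3091 and 5145 at 4 h, 7284, 6541 and 4260 at 12 h, 6360, 6712 and 6011 at 24 h, and 5706, 6905 and 4028 at 48 h. The lowest array at 0, 4 and 12 h was in each case 1 of the 3 upper-end arrays. The log2 change was 0.45 ± 0.24 at 24 h (adjusted p = 0.322) and 0.22 ± 0.24 at 48 h (95% interval -0.29 to 0.72, adjusted p = 0.666). Without those 3 arrays it was 0.26 at 24 h and 0.03 at 48 h, and without the 2 lower-end arrays 0.55 and 0.32, all uncalled.

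**Figure D2:**
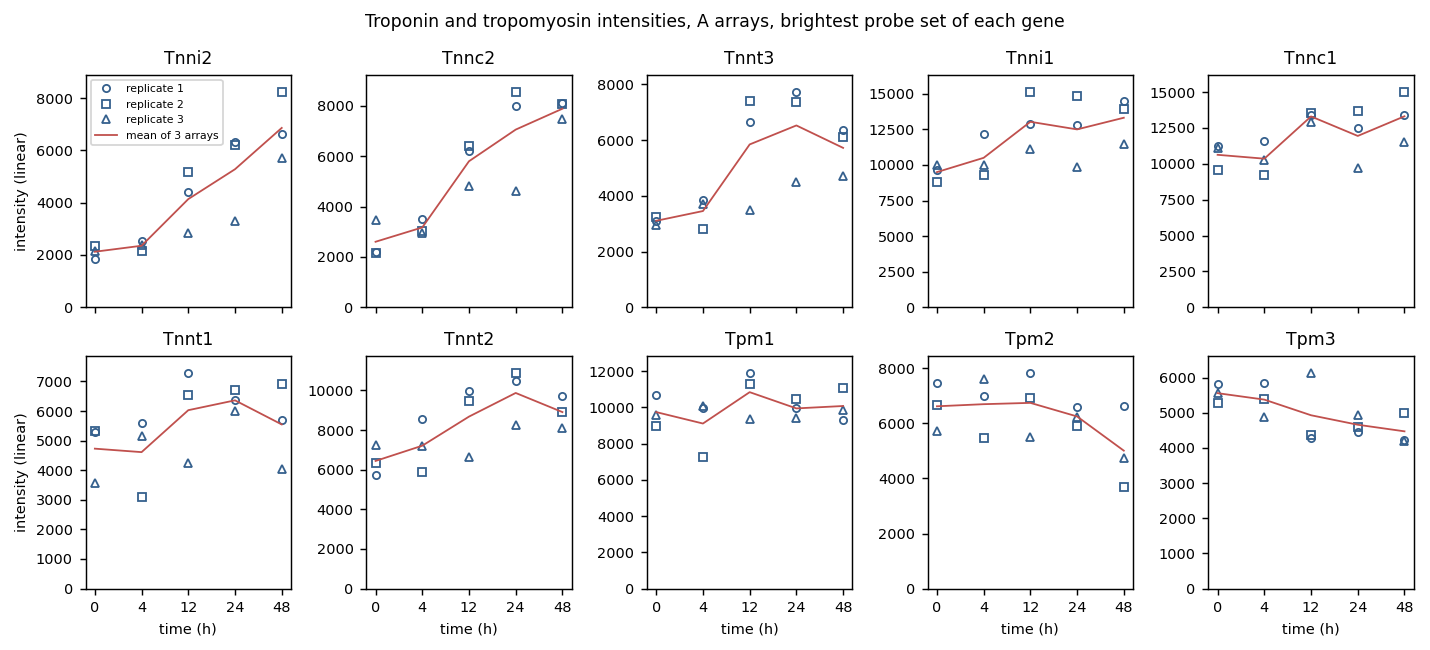
Linear intensity (vertical axis, from 0, scaled per panel) of the brightest A array probe set of each gene at 0, 4, 12, 24 and 48 h (times evenly spaced), with 1 symbol per array and a line through the means of 3 arrays. Tnni2 and Tnnc2 had their highest means at 48 h (6860 and 7886), Tnnt3 at 24 h (6525), and the Tpm1 means stayed between 9114 and 10847.

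Whether the fast form gained on its slow or cardiac counterpart was tested on the difference of their log2 intensities within each array, which cancels array scaling. Only the change of that difference was read, since 2 probe sets do not share a scale. At 0 h Tnni1 and Tnnc1 averaged 9500 and 10627, against 2124 for Tnni2 and 2602 for Tnnc2. Whether probe sets respond alike at such unlike intensities was not tested. Each gene was read by its brightest probe set, 1418726_a_at for Tnnt2. Arrays at 24 and 48 h (6) were compared with arrays at 0 and 4 h (6) by an exact two-sided permutation test, for which 0.00216 is the smallest p possible, with adjustment over 4 pairs. Joining neighbouring times treats them as 1 group.

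For the inhibitory subunit, Tnni1 minus Tnni2 was 1.12 ± 0.27 at 24 and 48 h and 2.15 ± 0.17 at 0 and 4 h (SD, n = 6 each), a change of -1.03 (exact p = 0.00216, adjusted p = 0.00289). For the calcium-binding subunit, Tnnc1 minus Tnnc2 was 0.77 ± 0.17 at 24 and 48 h and 1.88 ± 0.30 at 0 and 4 h, a change of -1.11 (adjusted exact p = 0.00289). In both pairs all 6 late arrays lay below all 6 early arrays. For the tropomyosin-binding subunit, Tnnt2 minus Tnnt3 was 0.64 ± 0.16 at 24 and 48 h and 1.05 ± 0.15 at 0 and 4 h, a change of -0.41 (adjusted exact p = 0.00289). By this Tnnt2 probe set the late values, 0.44 to 0.88, all lay below the early ones, 0.89 to 1.29. The other Tnnt2 probe set, 1424967_x_at, was not tested this way, and by it late and early arrays overlapped. Replicate 3 at 24 h read 8400 against 4487 for Tnnt3, a larger ratio than replicate 2 at 4 h, with 4672 against 2798. Tnnt1 minus Tnnt3 was -0.03 ± 0.27 at 24 and 48 h and 0.48 ± 0.25 at 0 and 4 h, a change of -0.52 (adjusted exact p = 0.0108), with late values of -0.28 to 0.42 overlapping early values of 0.14 to 0.78. By time, the means of Tnni1 minus Tnni2 were 2.16, 2.14, 1.68, 1.28 and 0.97 at 0, 4, 12, 24 and 48 h, lower at each time from 12 h on than at the time before. Those of Tnnc1 minus Tnnc2 were 2.06, 1.70, 1.21, 0.79 and 0.75. Those of Tnnt2 minus Tnnt3 were 1.04, 1.05, 0.62, 0.63 and 0.65, where the mean at 12 h was the lowest.

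**Figure D3:**
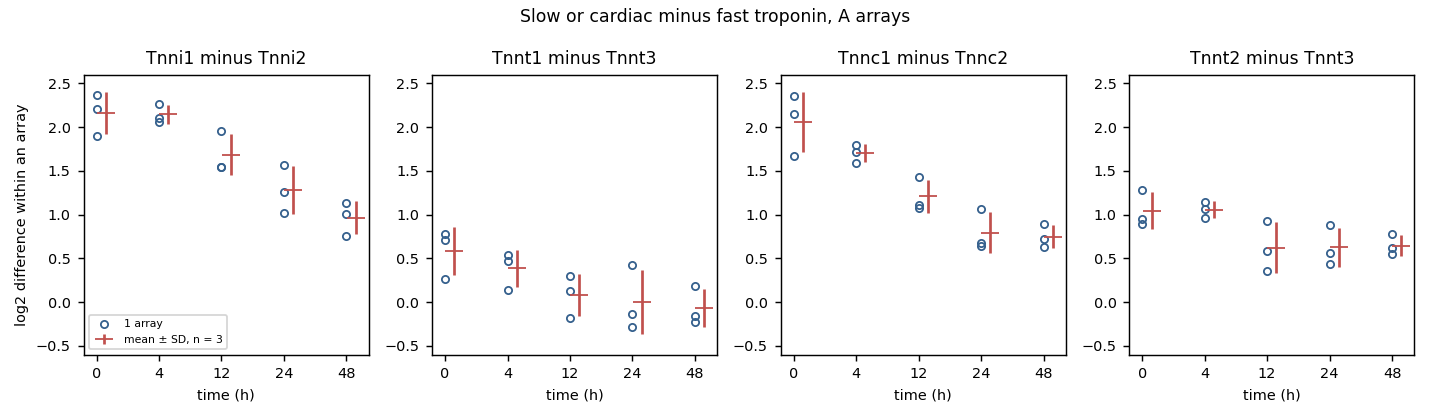
Slow or cardiac minus fast troponin as a log2 difference within each A array (vertical axis) at 0, 4, 12, 24 and 48 h, with open circles for arrays and red marks for mean ± SD of 3 arrays. Tnni1 minus Tnni2 and Tnnc1 minus Tnnc2 had means of 0.97 and 0.75 at 48 h, against 2.16 and 2.06 at 0 h.

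Of 12 tested tropomyosin A probe sets 1 was called, a Tpm2 probe set at 24 h, and probe sets of 1 gene differed in the sign of their change. Tpm1, alpha tropomyosin, had intensities of 10677, 8963 and 9596 at 0 h, 9953, 7293 and 10096 at 4 h, 11902, 11293 and 9345 at 12 h, 9952, 10452 and 9444 at 24 h, and 9316, 11066 and 9864 at 48 h by its brightest probe set, 1423049_a_at. These arrays overlapped at all times, and the log2 change at 48 h was 0.05 ± 0.13 (95% interval -0.22 to 0.32). The second, 1423721_at, gave 0.28 ± 0.15 at 24 h (adjusted p = 0.331) and 0.03 at 48 h. Dimmer by far, 1456623_at gave -0.42 ± 0.28 at 48 h (adjusted p = 0.436), with 522, 439 and 492 at 48 h against 668, 919 and 451 at 0 h. On the B arrays 1447713_at gave 0.45 ± 0.26 at 24 h (adjusted p = 0.603) and -0.07 at 48 h. Neither B probe set of the set was called over time, against 1.02%.

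Tpm2, beta tropomyosin, was read by 4 A probe sets, of which 1449577_x_at has a suffix meaning that its probes may also match other genes. By 1449577_x_at the intensity was 3229, 2887 and 3321 at 0 h, 3262, 2869 and 3221 at 4 h, 5042, 4113 and 3179 at 12 h, 5326, 5606 and 3526 at 24 h, and 3761, 3786 and 3595 at 48 h. The 24 h arrays were all above 0 h, replicate 3 by little, and the log2 change was 0.59 ± 0.17 (adjusted p = 0.0495). That call was lost in 18 of 27 alternatives (adjusted p up to 0.242). These were median scaling, a pseudocount of 1, no filter, no intensity trend, only the times compared, leaving out any 1 array at 0 or 48 h, replicate 1 or 3 at 4 h, replicate 2 at 12 h or replicate 1 or 2 at 24 h, and leaving out the 2 lower-end arrays or all 5. The brightest, 1419738_a_at, had 7469, 6658 and 5742 at 0 h, 7011, 5480 and 7609 at 4 h, 7832, 6914 and 5498 at 12 h, 6615, 5904 and 6244 at 24 h, and 6624, 3675 and 4735 at 48 h. The 48 h arrays overlapped with 0 h through replicate 1, and the log2 change was -0.43 ± 0.18 (adjusted p = 0.192). Without that array it was -0.66 and passed (adjusted p = 0.0446). At 24 h the log2 change of 1419738_a_at was -0.08 ± 0.18 (adjusted p = 0.881). For 1425028_a_at it was 0.28 at 24 h and -0.23 at 48 h (adjusted p = 0.331 and 0.451).

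The fourth Tpm2 probe set, 1419739_at, was low on the 3 upper-end arrays. Its intensity was 4153, 3825 and 2127 at 0 h, 4461, 1812 and 4015 at 4 h, 4663, 4439 and 1950 at 12 h, 3904, 3789 and 3538 at 24 h, and 2238, 2653 and 2147 at 48 h. The low value at 0, 4 and 12 h was in each case the upper-end array, close to the values of the 3 arrays at 48 h. The log2 change at 48 h was -0.47 ± 0.33 with all arrays (adjusted p = 0.474) and -0.77 ± 0.12 without the 3 (adjusted p = 0.000931). It was -0.35 ± 0.37 without the 2 lower-end arrays (adjusted p = 0.646) and -0.83 ± 0.16 without all 5 (adjusted p = 0.0123). The component was computed over all tested probe sets, this one included. At 24 h it was 0.21 with all arrays, -0.09 without the 3 and 0.33 without the 2, and none of these passed.

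**Figure D4:**
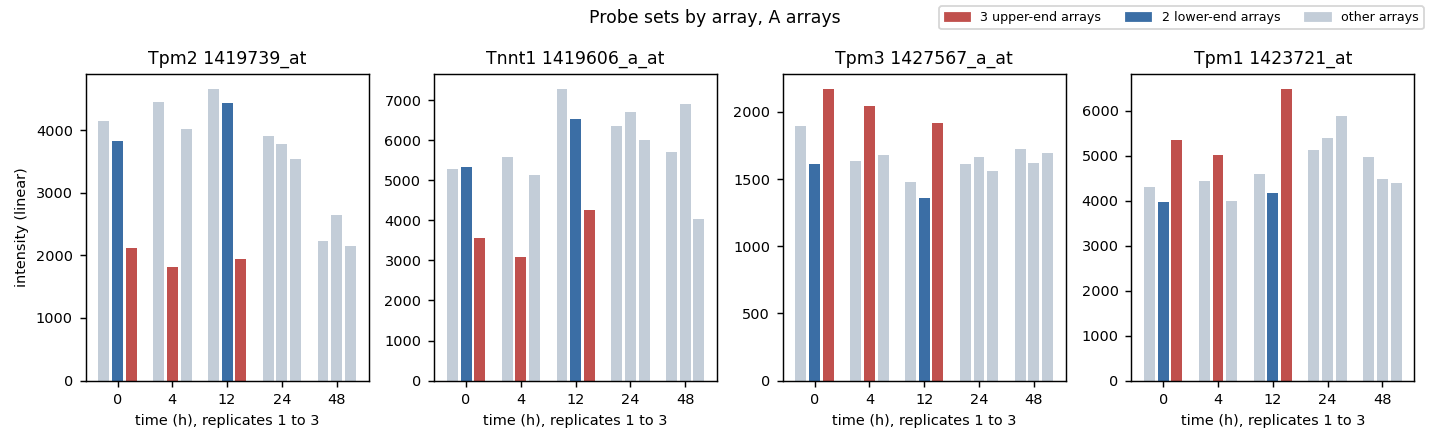
Linear intensity (vertical axis, from 0) of 4 probe sets on each of 15 A arrays, replicates 1 to 3 within each time, with the 3 upper-end arrays of the first component in red and the 2 lower-end arrays in dark blue. For Tpm2 1419739_at the red bars read 1812 to 2127, close to the 48 h arrays (2147 to 2653), and for Tnnt1 they were the lowest of their times, while for Tpm3 1427567_a_at and Tpm1 1423721_at they were the highest.

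Tpm3, gamma tropomyosin, whose gene gives slow-fibre and widely expressed non-muscle forms, had 5 A probe sets and no call. By 1427260_a_at the intensity was 5810, 5294 and 5576 at 0 h, 5843, 5402 and 4885 at 4 h, 4286, 4375 and 6133 at 12 h, 4444, 4605 and 4936 at 24 h, and 4227, 4984 and 4210 at 48 h. The 24 and 48 h arrays all lay below the 0 h arrays, and the high value at 12 h was replicate 3, an upper-end array. The log2 change was -0.32 ± 0.13 at 48 h (95% interval -0.59 to -0.04, adjusted p = 0.175). By 1436958_x_at, whose probes may also match other genes, it was -0.33 ± 0.14 (adjusted p = 0.202), also with no overlap between 48 h and 0 h. The values at 48 h were -0.16 for 1427567_a_at and -0.17 for 1449996_a_at. The dimmest, 1449997_at, went the other way with 0.73 ± 0.29 (adjusted p = 0.156), from 197, 265 and 137 at 48 h against 69, 184 and 102 at 0 h. Without 0 h replicate 2 it was 1.06 and passed (adjusted p = 0.0323), and likewise without the 2 lower-end arrays (1.06, adjusted p = 0.021) or all 5 (1.30, adjusted p = 0.0402).

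Between successive times no A probe set of the set was called, at 12 h against 4 h, 24 h against 12 h or 48 h against 24 h, where 0.295%, 0.0884% and 0.626% of all tested probe sets were called in either direction. At an unadjusted p under 0.05 the counts were 7, 0 and 1 of 21, against 11.5%, 7.09% and 11.4% of all tested.

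The rest of the sarcomere was described with 1 probe set per gene, the brightest. Over all tested probe sets, fainter ones and several per gene included, 3.23% were called higher at 24 h and 4.20% at 48 h. Of 11 tested other thin filament genes none was called at 24 or 48 h, and their median log2 change at 48 h was 0.03. Skeletal alpha-actin, Acta1, gave 0.12 ± 0.15 (adjusted p = 0.713), cardiac alpha-actin, Actc1, -0.33 ± 0.18 (adjusted p = 0.328), and Capzb, which caps the barbed end, -0.23 ± 0.10 (adjusted p = 0.217). Of 11 thick filament and titin genes 8 were higher at 24 h and 6 at 48 h, beside those 3.23% and 4.20%, with a median of 0.76 at 48 h. These were the slow myosin heavy chain Myh7 (2.10 ± 0.22), the perinatal chain Myh8 (1.98 ± 0.26), the light chains Myl1 (0.63 ± 0.15) and Myl4 (0.76 ± 0.16), the myosin-binding protein Mybph (1.05 ± 0.19) and the M-band protein Myom2 (1.27 ± 0.29). Of 15 Z-disc genes 6 were higher at 24 h and 7 at 48 h, beside the same 3.23% and 4.20%, with a median of 0.58 at 48 h. Myoz2, a calcineurin-binding protein, gave 2.17 ± 0.21 and the actin cross-linker Actn2 1.85 ± 0.25.

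Fibre type genes outside the troponins rose on both the slow and the fast list. Some of them, such as Myh7, Myoz2 and Actn3, were also on the sarcomere lists above. Of 6 tested slow fibre genes 5 were higher at 48 h, against 4.20% of all tested probe sets (median log2 change 1.75, against 0.02 over all tested): Myh7, Myoz2, the calcium buffer Casq2 (1.14 ± 0.23), myoglobin, Mb (1.43 ± 0.28), and the fatty acid carrier Fabp3 (2.06 ± 0.36). Of 8 fast fibre genes 4 were higher, against the same 4.20% (median 0.75): the calcium pump Atp2a1 (1.09 ± 0.23), Casq1 (2.02 ± 0.46), Actn3 (1.87 ± 0.31) and the glycolytic enzyme Pgam2 (1.46 ± 0.28). The fast light chain Mylpf gave 0.42 ± 0.15 (adjusted p = 0.122). Among the troponins, by the same choice of probe sets, all 3 fast genes and none of the 4 slow or cardiac genes were called at 48 h. After quantile normalization Tnni1, Tnnc1 and Tnnt2 were called at 48 h too, and the Tnnt3 call was lost in 10 of 27 alternatives. The difference between these lists was not tested.

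Over the 15 A arrays the tested genes whose log2 pattern was most like each troponin were found by Pearson correlation, given as a description of arrays that share their scaling and their times. For Tnni2 they were Cox6a2, a muscle subunit of cytochrome oxidase (r = 0.983), and Myoz2 (0.962). For Tnnc2 they were Tnni2 (0.982, by 1438609_x_at) and Myoz2 (0.978), and for Tnnt3 the small heat shock gene Hspb2 (0.981) and Cox8b (0.972), another muscle subunit of cytochrome oxidase. Among slow and cardiac forms they were Mylpf (0.956) and Tmsb10 (0.939) for Tnni1, Babam2 (0.899) and the muscle enolase Eno3 (0.895) for Tnnc1, Cdkn1c (0.938) and Smim8 (0.93) for Tnnt1, and Casq2 (0.944) and Tecr (0.939) for Tnnt2. For the tropomyosins they were Vps45 (0.83) and Rras2 (0.804) for Tpm1, Lamtor1 (0.888) and Olfm1 (0.88) for Tpm2, and Shcbp1 (0.911) with the mitotic kinase gene Cdk1 (0.91) for Tpm3.

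Markers of the labelled muscle and of other cell types were read beside these results. Of all tested probe sets 3.23% were called higher at 24 h and 4.20% at 48 h. Called lower were 317 of 13577 at 24 h and 339 at 48 h. Of 10 skeletal muscle markers 8 were tested, with Myf5 and Myf6 under the filter. Cacna1s was higher at 48 h (1.30 ± 0.24) and Myod1 lower (-0.73 ± 0.18, adjusted p = 0.0232), and the summed intensity of the 10 was 40556 to 45430 at 48 h and 39965 to 56874 at 0 h. Some members are also read in smooth or cardiac muscle. Of 7 tested smooth muscle and pericyte markers 3 were higher at 48 h, Tagln (1.10), Pdgfrb (1.29) and Mcam (1.33), and 4 at 24 h, while the smooth muscle myosin Myh11 and Cnn1 lay under the filter. The summed intensity of that list was 16172 to 18605 at 48 h, 19202 to 20626 at 24 h and 12703 to 19172 at 0 h. Most of it was Acta2, which averaged 12338 at 48 h and 14160 at 0 h and was not called. Of 5 tested cardiac markers 1 was higher at 48 h, Myl4, which developing skeletal muscle also expresses. At 24 h 2 were higher, Myl4 (0.58) and Sln (1.55, adjusted p = 0.0405). Nppa, Myh6, Tnni3 and Myl7 lay under the filter. Nkx2-5, Gata4 and Nppb were tested, with means of 175.9, 161.3 and 89.5 at 0 h, and were not called at 24 or 48 h. The list summed to 13256 to 17326 at 48 h and 8036 to 12369 at 0 h. Most of that sum was Myl4, which alone averaged 14670 and 8801. Of 3 tested fibroblast markers Col3a1 (0.57) and Postn (2.82) were higher at 48 h, while Col1a2 was not called (-0.05). The other 6 of the 9 listed, Col1a1, Pdgfra, Dcn, Lum, Thy1 and Fap, lay under the filter. The list summed to 4187 to 4818 at 48 h and 2590 to 3128 at 0 h. Most of that sum was Col3a1, which alone averaged 3644 and 2449 at these times. Postn was dim at 0 h, averaging 30.3. Of 4 tested Schwann and nerve markers Nefl (-2.24) and Nefm (-2.29) were lower, with sums of 392 to 548 at 48 h and 928 to 1044 at 0 h. None of 2 endothelial or 3 macrophage markers passed, with sums of 429 to 483 and 546 to 827 at 48 h, and of 374 to 531 and 646 to 915 at 0 h. The part of these cells in the troponin and tropomyosin changes was not tested.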

How the data were processed

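Total RNA of cultured extraocular muscle from mice was hybridised to Affymetrix A and B arrays, 15 of each, by a standard Affymetrix protocol per the labels. The authors deposited 1 linear intensity per probe set, and neither software nor summary method is given in the sources used here. Their trimmed mean was 500.2 on every A array and 500.1 on every B array, so the authors' values were scaled array by array. Platform symbols named 20393 A and 14674 B probe sets with 1 gene, 691 and 245 with several, and 1606 and 7656 with none.

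The log2 of intensity plus 16 was fitted with 1 mean per time, for each type over its 15 arrays, using limma 3.58.1 (lmFit, eBayes with an intensity trend; R 4.3.3). Left out were 64 controls per type and probe sets with a mean under the 40th percentile (101 on A, 199.6 on B). Benjamini-Hochberg adjustment ran over the 13577 A or 13507 B probe sets tested. Paralog differences were tested by exact permutation with scipy 1.17.1, and figures were drawn with matplotlib 3.10.9. The code was tested on simulated data.

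The members, the gene lists and the tests were chosen with earlier results of these data known. Named were all members, the called genes of each list and up to 3 others with the largest moderated statistic at 48 h, and the 2 genes most like each member; not every such gene is printed. Replicate numbers were not used to pair the arrays in the main fit, and the labels do not say if they do. Deviations of same-numbered arrays correlated at -0.36 to 0.42 on A, above 0.1 in 10 of 30 pairs. On B they correlated at -0.10 to 0.11, above 0.1 in 1 of 30 pairs. Alternatives were quantile normalization, median scaling, pseudocounts of 1 and 64, no filter or a 60th percentile filter, the replicate block, a variance model with no trend, fits on the compared times alone, and every array omitted singly. Leaving out the 3 upper-end, the 2 lower-end or all 5 end A arrays of the first component together was chosen after seeing the data.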

Additional observations from a re-analysis of the deposited data

How the results depend on the processing

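The number of A probe sets of the set called at 12 h was 2, and 0 with median scaling, without the filter, without the intensity trend, with only the times compared, or without the 2 lower-end or all 5 end arrays, and 6 without the 3 upper-end arrays. With 1 array left out it ranged from 0 (0 h replicate 1 or 2, 12 h replicate 1 or 2) to 4 (12 h replicate 3). At 24 h the count was 7, and 4 with median scaling, without the filter, without the intensity trend or without the 2 lower-end arrays, and 3 (0 h replicate 1, 24 h replicate 1 or 2) to 8 (24 h replicate 3) with 1 array left out. At 48 h it was 4, and 8 with quantile normalization, 7 without the 3 upper-end arrays, and 3 to 5 with 1 left out. From 4 to 12 h it was 0, and up to 4 with 1 left out (12 h replicate 3). From 24 to 48 h it was 0, and 2 without the 3 upper-end arrays and 1 without all 5 or with only the times compared. The F-test's count was 4, and 8 with quantile normalization or without the 3 upper-end arrays, and 3 to 7 (7 without 12 h replicate 3) with 1 left out. With the replicate block the A counts were 0, 2, 7 and 5 at 4, 12, 24 and 48 h and 5 in the F-test, and all B counts were 0. The 4 paralog differences kept direction and call in all 19 alternatives, with changes of -1.12 to -0.92 (Tnni1 minus Tnni2), -1.17 to -1.01 (Tnnc1 minus Tnnc2), -0.61 to -0.46 (Tnnt1 minus Tnnt3) and -0.46 to -0.36 (Tnnt2 minus Tnnt3). Not all of these could differ. Arrays at 12 h were not in this test, so leaving 1 out changed nothing, and median scaling nearly cancels within an array. The end arrays were not left out together here.

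Of 2456 recomputed log2 changes 5 turned sign by more than the replicate spread, none of them called: Tpm2 1419739_at at 4 h (-0.02 reported, -0.32 to 0.39 with 1 array left out), Tpm1 1423721_at at 12 h (0.15, -0.039 to 0.28), Tpm1 1456623_at at 12 h (0.03, -0.38 without the 3 upper-end arrays), Tpm3 1449996_a_at at 24 h (0.03, -0.29 without all 5) and Tnnt2 1440424_at on B at 24 h (0.28, -0.22 to 0.67). A further 90 uncalled values changed sign within that spread. The causes were not tested. Without detection calls, dim probe sets such as Tpm3 1449997_at cannot be set against background.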
